A study of Mus musculus with 6 samples.

Results

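Hepatokines are proteins that the liver releases into the blood and that act on the liver itself or on distant organs. The genes of 8 of them (Fgf21, Fgf23, Gdf15, Angptl4, Angptl6, Fetub, Inhbe and Lect2) were followed in bulk liver RNA from mice carrying CT26 tumors. They were taken by symbol from a table of 20140 genes, and all 8 were listed there. Fgf23 was chosen by its high measured counts in the intra-S livers, so its levels are given as a description with no test, and it is left out of the counts of called genes below. It is also not a typical hepatokine, since bone is its usual source.

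Livers taken on day 21 formed 3 groups, each of 2 mice. The sham group received PBS, which its labels give where those of the other groups name CT26. In the intra-C group CT26 cells were implanted in the cecum, a setting the study calls premetastatic because the liver held no visible metastases at that time. In the intra-S group the cells were injected into the spleen, from which they reach the liver and form metastases. The sample titles read only control, intra-C and intra-S, and the study's text gives these meanings. CT26 is a colorectal carcinoma line from BALB/c mice, the strain that the study used as host, so RNA from tumor cells and RNA from the host carry the same genome and cannot be told apart by gene. The route of implantation changed with the group, and these cannot be told apart either. Libraries were made from polyadenylated RNA of all liver cells, so a lower value may stand for fewer cells of a type or for less RNA per cell, which cannot be told apart.

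The livers had between 32838321 and 43368309 counts, so a gene at 0 counts lay below 0.0679 to 0.0928 CPM (counts relative to the TMM-scaled library total, with a limit of 3 counts). All 12 hepatocyte markers were detected in every liver, and their summed level lay between 121577 and 193955 CPM. Most of this sum was Alb alone (84369 to 156594 CPM), so it follows Alb more than the other markers. Summed markers of other cell types differed between groups. Those of neutrophils were 3.82 and 4.84 CPM in sham, 273 and 582 CPM in intra-C and 1016 and 403 CPM in intra-S livers. Those of macrophages and Kupffer cells were 198 and 200 CPM in sham, 934 and 1209 CPM in intra-C and 625 and 1153 CPM in intra-S livers. Those of erythroid cells were 318 and 459 CPM in sham, 482 and 329 CPM in intra-C and 1909 and 1312 CPM in intra-S livers. The 2 livers of the intra-S group were the least alike. Their log2 CPM correlated with r = 0.928 across the 16370 genes tested, against 0.968 in intra-C and 0.981 in sham livers, and 282 of the 7261 genes with a mean of at least 10 CPM differed more than 4-fold between them, against 35 and 14. For that reason every hepatokine is given liver by liver.

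The hepatokines fall into several families. FGF21 and FGF23 are endocrine fibroblast growth factors that lack strong heparin binding and need a Klotho protein beside an FGF receptor. FGF21 is made by hepatocytes in fasting, under PPAR alpha, and in amino acid or mitochondrial stress, under ATF4, whereas FGF23 lowers blood phosphate and active vitamin D. GDF15 is a stress cytokine that acts on appetite through GFRAL in the hindbrain, and INHBE encodes the beta subunit of activin E, a hepatocyte product that acts on adipose tissue. ANGPTL4 inhibits lipoprotein lipase, ANGPTL6 is an angiopoietin-like growth factor, fetuin-B is a plasma inhibitor of the cystatin superfamily, and LECT2 is a chemotactic hepatocyte protein that binds the receptors MET and TIE1.

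The upstream sequences of these genes are shown first, because Fgf21 and Inhbe are known as stress-responsive genes and were both lowest in the same intra-C liver, and because Fgf23 was the gene with nearly no reads outside the intra-S group. RefSeq promoter sequences of build GRCm38.p6 (mm10) matched 7 of the 8 genes, with 9 windows of 250 bases, each before a start that RefSeq gives. Some of these starts are internal, so that the second windows of Gdf15 and Fetub lie within the gene, and the windows of Angptl6 and Lect2 and the first of Gdf15 partly overlap the gene. Those of Fgf21, Fgf23 and Inhbe end right before the gene. The core of the ATF4 composite element was searched as TTGCATCA, a STAT site as TTCNNNGAA, an AP-1 site as TGANTCA and the core of a HIF site as ACGTG, each on both strands. The ATF4 core was found in 260 of 32851 promoter windows of this length (0.791%), the STAT letters in 7.02%, the AP-1 letters in 6.75% and the HIF core in 16.6%. Among the hepatokines the ATF4 core was present in the windows of Fgf21 and Inhbe, 139 and 181 bases before the gene start, and the STAT letters only in the window of Fgf23, 101 bases before it. The HIF core was present in Fgf21, in Inhbe and in 1 of the 2 windows of Gdf15, and the AP-1 letters were in none of the 9 windows. These are matches of letters and not measured binding sites. The lines that follow give the Fgf21 window (chr7:45615491-45615740, minus strand, capitals mark the ATF4 core), the Fgf23 window (chr6:127072652-127072901, plus strand, capitals mark the STAT match), and the ATF4 core with 10 bases on each side in Fgf21 and Inhbe for comparison.
Fgf21 window: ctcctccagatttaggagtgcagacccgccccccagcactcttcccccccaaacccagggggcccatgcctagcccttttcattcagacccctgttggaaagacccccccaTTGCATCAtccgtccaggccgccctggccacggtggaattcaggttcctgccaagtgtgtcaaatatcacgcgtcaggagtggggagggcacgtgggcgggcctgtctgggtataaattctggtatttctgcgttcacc
Fgf23 window: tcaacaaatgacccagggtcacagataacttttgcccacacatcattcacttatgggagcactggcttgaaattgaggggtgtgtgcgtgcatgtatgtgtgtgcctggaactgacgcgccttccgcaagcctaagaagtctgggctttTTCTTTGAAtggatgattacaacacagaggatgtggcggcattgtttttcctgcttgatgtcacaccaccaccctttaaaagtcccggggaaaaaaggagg
Fgf21 core: gacccccccaTTGCATCAtccgtccagg
Inhbe core: atcctctttcTTGCATCAtgcatgtcca

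Fgf23 (chr6:127072902-127082296, plus strand) was almost without reads in sham and intra-C livers and was high in 1 intra-S liver. The sham livers held 0 and 0 raw counts, intra-C livers 2 and 0, and intra-S livers 3116 and 159. On the CPM scale the intra-S livers had 90.9 and 3.90, so both lay above all 4 other livers, but liver 1 was 23.3-fold above liver 2. The group mean was 47.4 ± 61.5 CPM (SD, n = 2), and without liver 1 the group rests on the single value of 3.90 CPM. Against the limit of 3 counts in the sham livers (mean 0.0709 CPM), Fgf23 was at least 1282-fold higher in intra-S liver 1 and at least 55.0-fold higher in liver 2. In liver 1 it ranked 1158 among the 16370 tested genes by CPM, and in liver 2 it ranked 9940. The neighboring gene Tigar lies 2820 bases away. It was 5.57 and 4.44 CPM in sham, 3.08 and 4.52 in intra-C and 6.12 and 4.05 in intra-S livers, with a log2 fold change of 0.02 between intra-S and sham livers (adjusted p = 0.974).

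Bone is the usual source of FGF23. Of 7 bone and osteocyte markers only Dmp1 had values here, with 0 counts in 5 livers and 9 counts in intra-S liver 2, the liver with the lower Fgf23 level. Erythroid markers were high in both intra-S livers, as given above, and Epo, the hormone of red cell formation, had 29 and 4 counts there and 0 counts in each of the other 4 livers. Their part in the Fgf23 level was not tested. The tested genes with a mean of at least 1 CPM whose log2 CPM followed Fgf23 most closely over the 6 livers were Tram1 (r = 0.998), Arpc3 (r = 0.993) and Anxa5 (r = 0.992), which code for a protein of the secretory translocon, an actin nucleation subunit and an annexin. With 1 value near the top and 4 at the limit of detection, 117 of 12679 genes reached a correlation over 0.95, so the match is not particular to these genes.

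Genes of FGF23 processing and of the mineral and iron axis were read from a list of 15, of which 6 were tested. Of these, 2 were called higher and 1 lower in intra-S livers than in sham livers, and 0 were called higher and 1 lower in intra-C livers. Here a gene is called where the adjusted p of edgeR's quasi-likelihood test is under 0.05, and 6.78% of all tested genes were called higher and 3.95% lower in intra-S livers, against 4.92% and 2.38% in intra-C livers. Galnt3, whose enzyme glycosylates FGF23 and protects it from cleavage, had 8 and 11 counts in sham, 34 and 36 in intra-C and 32 and 60 in intra-S livers, and rose in intra-S livers (log2 fold change 2.41, SE 0.59, adjusted p = 0.0495). Vdr, the vitamin D receptor, had 0 and 4 counts in sham, 21 and 22 in intra-C and 100 and 92 in intra-S livers (log2 fold change 5.70, SE 0.96, adjusted p = 0.0206 in intra-S). Fam20c, the kinase that phosphorylates FGF23 and thereby favors its cleavage, fell in intra-C livers (log2 fold change -1.41, SE 0.28, adjusted p = 0.0381), with 42.2 and 42.0 CPM in sham, 16.5 and 15.0 in intra-C and 20.7 and 35.7 in intra-S livers. Furin, the protease that cleaves FGF23, was 97.8 and 90.8 CPM in sham, 210 and 121 in intra-C and 424 and 71.6 in intra-S livers and was not called in either group. Hamp, which encodes the iron hormone hepcidin, showed the widest change of the list. It was 537 and 536 CPM in sham livers, 65.3 and 464 CPM in intra-C livers and 0.437 and 0.981 CPM in intra-S livers, and fell in the latter (log2 fold change -9.54, SE 1.18, adjusted p = 0.00965). The relation of these genes to the Fgf23 level was not tested.

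**Figure D1:**
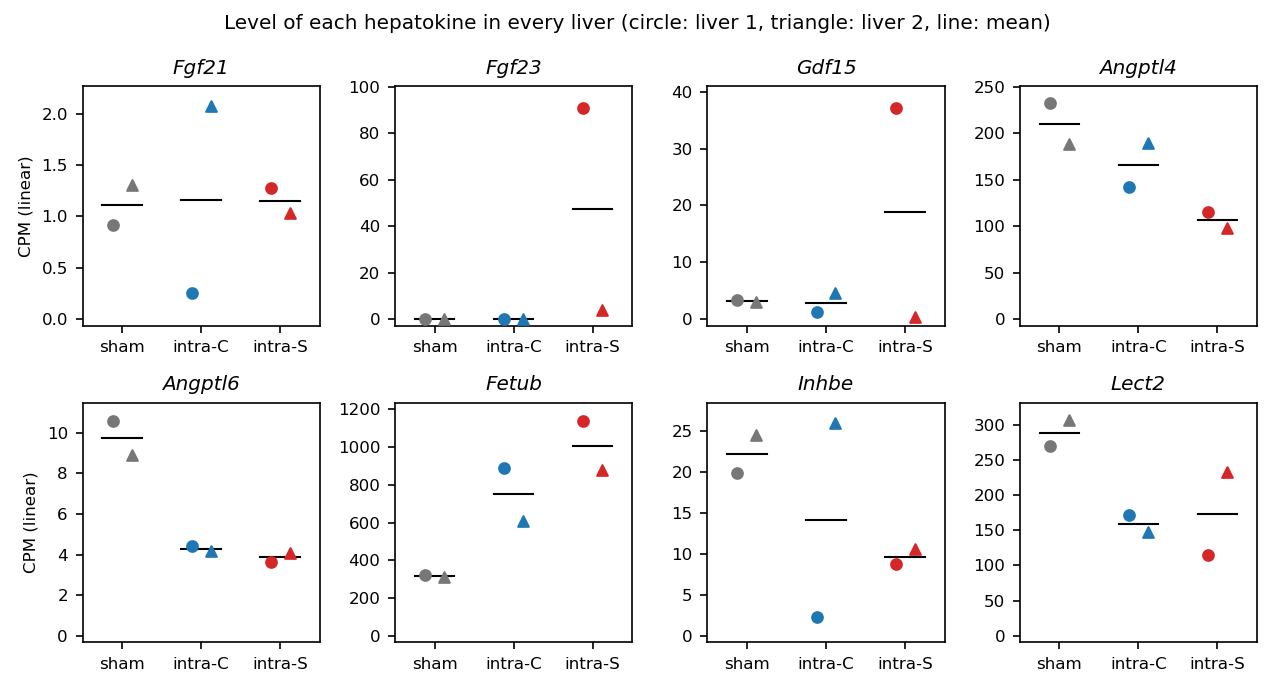
Level of each hepatokine in every liver, in CPM on a linear axis that starts at 0, with a circle for liver 1, a triangle for liver 2 and a line for the mean of the 2 livers of each group. Fgf23 and Gdf15 are high in 1 intra-S liver (90.9 and 37.2 CPM), Fgf21 and Inhbe are low in 1 intra-C liver (0.255 and 2.29 CPM), and Fetub lies above sham and Angptl6 below sham in all 4 livers of tumor-bearing mice.

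Fgf21 (chr7:45613890-45615490, minus strand) had low counts in every liver and showed no difference between groups beyond the spread of its livers. Its counts were 37 and 58 in sham, 10 and 67 in intra-C and 44 and 42 in intra-S livers, which correspond to 0.912 and 1.31, 0.255 and 2.07, and 1.28 and 1.03 CPM. The group means were 1.11 ± 0.284, 1.16 ± 1.29 and 1.16 ± 0.179 CPM (SD, n = 2 each). Both the lowest and the highest value were in the intra-C group, whose livers differed 8.14-fold, a gap larger than this in only 0.574% of the tested genes in that group. The log2 fold change against sham was 0.05 in both groups (SE 0.89, adjusted p = 0.978 in intra-C and SE 0.88, adjusted p = 0.975 in intra-S, edgeR quasi-likelihood test), and its sign changed with the scaling, to -0.17 and -0.23 without TMM. With standard errors of this size even a severalfold difference was not detectable. The genes closest to Fgf21 over the 6 livers were A430033K04Rik (r = 0.966), Tnfaip2 (r = 0.965) and Zfp830 (r = 0.961).

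Of the co-receptors, that of FGF21 had reads in every liver and that of FGF23 was nearly without reads. Klb, the beta-Klotho co-receptor that FGF21 needs, was 29.1 and 30.3 CPM in sham, 34.1 and 22.7 in intra-C and 37.9 and 31.6 in intra-S livers, with log2 fold changes of -0.07 (adjusted p = 0.894) and 0.23 (adjusted p = 0.572). Kl, the co-receptor of FGF23, had 9 and 0 counts in sham, 6 and 0 in intra-C and 0 and 0 in intra-S livers, and was too low to be tested. Fgfr4, the main FGF receptor of hepatocytes, lay between 14.0 and 19.6 CPM in all 6 livers and was not called (log2 fold changes 0.19 and -0.09). Of the 6 tested genes of this list 0 were called in intra-C livers, and 1 was called higher in intra-S livers. That gene was Fgfr1, with 36 and 21 counts in sham, 72 and 44 in intra-C and 176 and 167 in intra-S livers, a log2 fold change of 2.76 in intra-S livers (SE 0.45, adjusted p = 0.0193). The median log2 fold change of the list was 0.10 and 0.37, beside 0.01 and 0.04 over all tested genes, of which 7.30% and 10.7% were called.

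Gdf15 (chr8:70629393-70632470, minus strand) differed more between the intra-S livers than between any groups. Its counts were 136 and 136 in sham, 50 and 149 in intra-C and 1274 and 16 in intra-S livers. On the CPM scale these were 3.35 and 3.08, 1.27 and 4.61, and 37.2 and 0.393, so that the highest and the lowest level of all 6 livers were both in the intra-S group. The ratio between the intra-S livers was 94.6, and only 0.0183% of the tested genes had a wider gap there. The log2 fold change against sham was 2.54 in intra-S livers (SE 1.57, adjusted p = 0.323) and -0.14 in intra-C livers (SE 1.53, adjusted p = 0.966), and that of intra-S against intra-C was 2.68 (SE 1.58, adjusted p = 0.485). Neither call nor direction in intra-S was steady. Without intra-S replicate 2 the value was 3.53 and passed the test (adjusted p = 0.00394), and without intra-S replicate 1 it turned to -3.02 (adjusted p = 0.0537). With limma it was 0.55 on log2(TPM + 1) and 0.08 on log2(TPM + 0.1). The genes closest to Gdf15 over the 6 livers were Zfp777 (r = 0.995), Slc35c1 (r = 0.990) and Glt1d1 (r = 0.988).

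Of the genes around GDF15, the receptor gene Gfral was not analysed here. Egr1, an immediate early factor, rose in both groups, from 0.912 and 1.83 CPM in sham to 32.6 and 19.5 in intra-C and 146 and 47.0 in intra-S livers (log2 fold changes 4.24 and 6.13, adjusted p = 0.0221 and 0.00911). Cdkn1a, a cell cycle inhibitor and p53 target as Gdf15 is, was 9.49 and 1.13 CPM in sham, 19.4 and 80.8 in intra-C and 228 and 15.0 in intra-S livers and was not called (adjusted p = 0.219 and 0.115). Like Gdf15, it was highest in intra-S liver 1, but in intra-S liver 2 it was above both sham livers while Gdf15 was lowest there. A part of p53 in these levels was not tested.

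**Figure D2:**
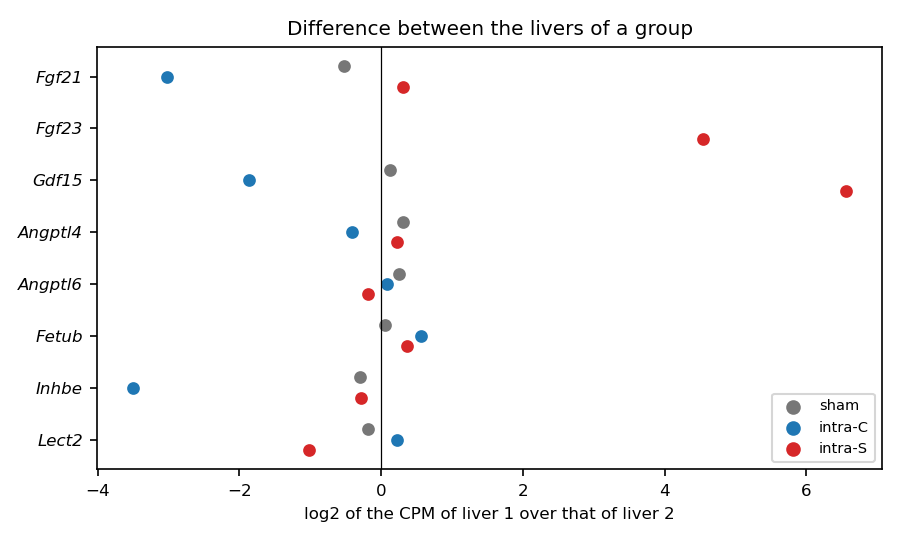
Log2 ratio of the CPM of liver 1 to that of liver 2 in each group, for each hepatokine, with 1 point per group and Fgf23 shown only for intra-S livers because the other groups held at least 1 liver at 0. Gdf15 and Fgf23 are far to the right in intra-S livers (94.6-fold and 23.3-fold higher in liver 1), and Inhbe and Fgf21 are far to the left in intra-C livers (11.3-fold and 8.14-fold lower in liver 1).

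Inhbe (chr10:127349402-127351848, minus strand) was lower in 1 intra-C liver and in both intra-S livers than in sham livers, without passing the test. It was 19.9 and 24.5 CPM in sham, 2.29 and 25.9 CPM in intra-C and 8.72 and 10.6 CPM in intra-S livers. The intra-C livers thus held the lowest and the highest value, 11.3-fold apart, whereas the intra-S livers lay close to each other and below both sham livers. The log2 fold changes were -0.66 in intra-C (SE 0.90, adjusted p = 0.683) and -1.20 in intra-S livers (SE 0.91, adjusted p = 0.416). The first turned to 0.23 without intra-C replicate 1 and was -3.25 without intra-C replicate 2. Across the 6 livers the log2 CPM of Inhbe and Fgf21 correlated with r = 0.88, which rests largely on intra-C liver 1, where both were lowest. These are also the 2 genes whose windows carried the ATF4 core printed above, and a part of ATF4 in their levels was not tested.

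The integrated stress response, the program that ATF4 drives when translation is slowed, was read from a list of 22 genes that were all tested. In intra-C livers 1 was called higher and 0 lower, and in intra-S livers 5 were called higher and 0 lower, with a median log2 fold change of 0.93 and 1.96. Over all tested genes 4.92% were called higher in intra-C and 6.78% in intra-S livers. The genes called in intra-S livers were Asns, Chac1, Psat1, Phgdh and Mthfd2, and the one called in intra-C livers was Chac1. Asns, asparagine synthetase, had 0 and 8 counts in sham, 51 and 34 in intra-C and 183 and 325 in intra-S livers (log2 fold change 6.11, SE 0.93, adjusted p = 0.0156 in intra-S). Psat1 and Phgdh of serine synthesis rose in intra-S livers by 3.95 and 4.63, and Mthfd2 of mitochondrial folate metabolism by 3.92, on the log2 scale (adjusted p = 0.0232, 0.0362 and 0.00819). Chac1, which degrades glutathione, rose in both groups (log2 fold changes 2.89 and 2.87, adjusted p = 0.0316 and 0.0253). Atf4 itself was 46.7 and 48.8 CPM in sham, 91.3 and 62.5 in intra-C and 136 and 76.3 in intra-S livers and was not called (adjusted p = 0.236 and 0.0744). Atf3 was 52.2 CPM in intra-S liver 1 and between 1.03 and 2.80 CPM in the other 5 livers, so it peaked in the same liver as Gdf15. Of the 22 genes, 13 were highest in intra-S liver 1, 7 (Asns, Psat1 and Phgdh among them) in intra-S liver 2 and 2 in intra-C liver 1. The same counts over all tested genes were not made, so whether they are particular to this list cannot be told. None was highest in intra-C liver 2, where Fgf21 and Inhbe were highest. Inhbe was 25.9 CPM there, close to the 24.5 CPM of sham liver 2. The relation of this list to Fgf21 and Inhbe was not tested. Proliferation markers, which tumor cells can add to, summed to 15.9 and 9.21 CPM in sham, 28.0 and 34.9 in intra-C and 81.7 and 68.1 in intra-S livers, and their part in the stress response genes was not tested.

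**Figure D3:**
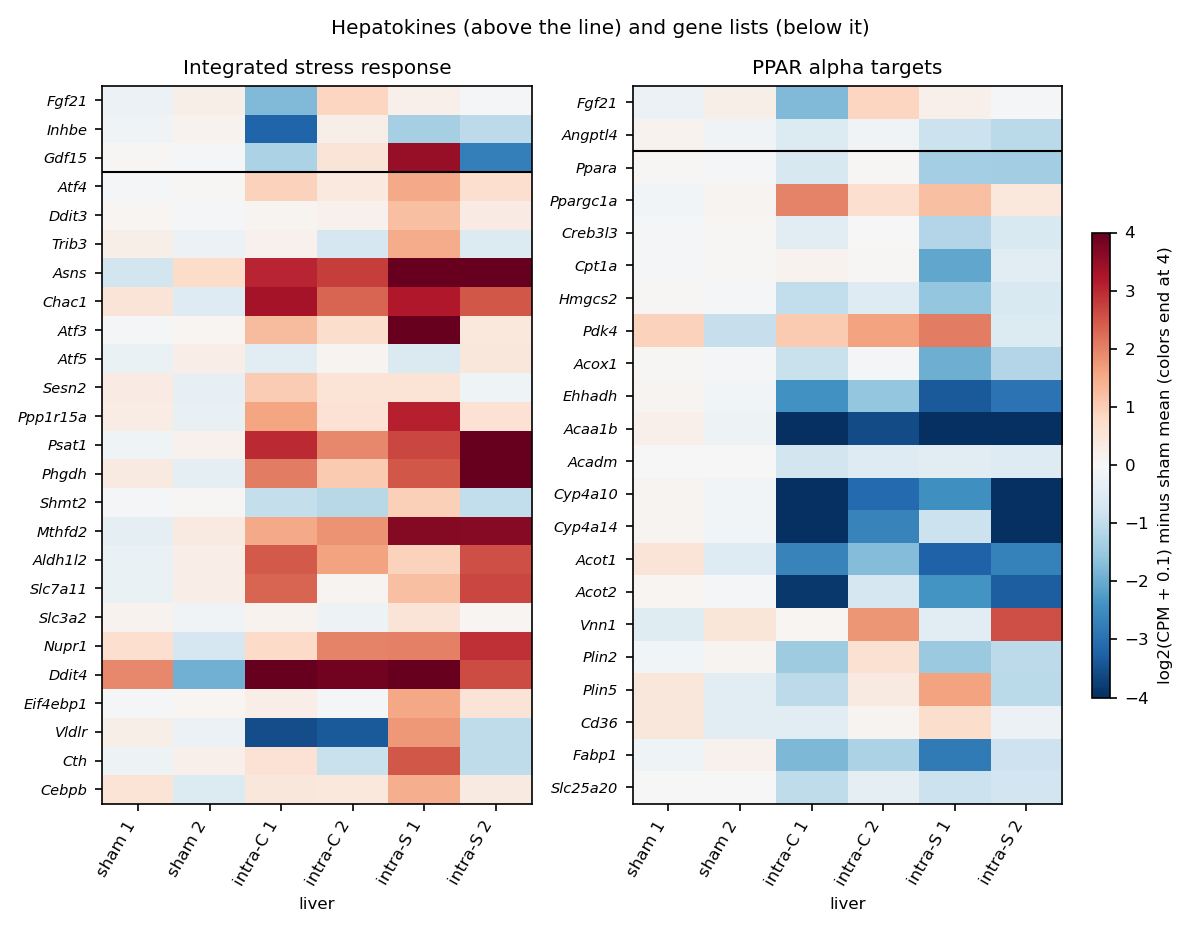
Log2(CPM + 0.1) minus the mean of the sham livers for each of the 6 livers (columns), with colors that end at 4 in each direction, for hepatokines (above the line) and for the lists of the integrated stress response and of PPAR alpha targets (below it). Asns, Psat1, Phgdh and Mthfd2 are above sham in all 4 livers of tumor-bearing mice while Fgf21 and Inhbe are not, and Acaa1b, Ehhadh and Acot1 are below sham in all 4. Other genes of the stress list, such as Vldlr and Shmt2, are below sham in both intra-C livers.

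Angptl4 (chr17:33774900-33781575, minus strand) was lower in intra-S livers and missed the threshold narrowly. It was 232 and 188 CPM in sham, 142 and 189 CPM in intra-C and 115 and 98.5 CPM in intra-S livers. Both intra-S livers lay below all others, and the intra-C livers overlapped with sham. The log2 fold change was -0.34 in intra-C (SE 0.24, adjusted p = 0.398) and -0.98 in intra-S livers (SE 0.24, adjusted p = 0.0501), and between intra-S and intra-C it was -0.63 (SE 0.24, unadjusted p = 0.0345, adjusted p = 0.352). In intra-S livers it passed the threshold in 9 of 16 alternatives, with adjusted p from 0.00363 to 0.329, among them the fits without intra-S replicate 1 (0.0207) and without intra-S replicate 2 (0.0278).

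Angptl6 (chr9:20873808-20879822, minus strand) fell in both groups. It was 10.6 and 8.90 CPM in sham, 4.41 and 4.18 CPM in intra-C and 3.62 and 4.10 CPM in intra-S livers, and the livers of tumor-bearing mice were all below the sham livers. The fall was 2.27-fold in intra-C (log2 fold change -1.18, SE 0.25, adjusted p = 0.0438) and 2.52-fold in intra-S livers (log2 fold change -1.33, SE 0.25, adjusted p = 0.0276). The livers of one group differed at most 1.19-fold. The call was lost without either sham liver, where the adjusted p was 0.311 and 0.248 in intra-C and 0.217 and 0.164 in intra-S livers and no gene of the whole table was called. It was also lost without either intra-C liver, with adjusted p of 0.229 and 0.231 in intra-C and of 0.0722 and 0.0740 in intra-S livers, in intra-C livers with a replicate block (adjusted p = 0.0693) and in intra-S livers when only those livers and sham were fitted (adjusted p = 0.0711). The gene overlaps Shfl on the opposite strand by 500 bases, the library kit does not mark strand, and Shfl had 746 and 625 counts in sham, 330 and 443 in intra-C and 391 and 642 in intra-S livers, so reads in the shared stretch cannot be told apart.

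Most called genes of the wider angiopoietin-like and lipase list fell. Of 14 tested genes, which include Angptl4 and Angptl6, 0 were called higher and 3 lower in intra-C livers and 1 higher and 5 lower in intra-S livers, with median log2 fold changes of -0.85 and -0.61. The shares over all tested genes were 4.92% higher and 2.38% lower in intra-C livers, and 6.78% and 3.95% in intra-S livers. Lipc, the hepatic lipase, fell from 246 and 263 CPM in sham to 77.1 and 80.1 in intra-C and 74.2 and 66.6 in intra-S livers (log2 fold changes -1.70 and -1.85, adjusted p = 0.00962 and 0.00668). Angptl2, an inflammatory angiopoietin-like factor, fell in both groups (log2 fold changes -1.50 and -1.13, adjusted p = 0.0201 and 0.0321). Lipg, the endothelial lipase, and Apoc2, the activator of lipoprotein lipase, fell in intra-S livers (log2 fold changes -3.55 and -2.16, adjusted p = 0.0155 and 0.0240). Gpihbp1, which carries lipoprotein lipase to the vessel wall, was the gene that rose, from 5.69 and 6.56 CPM in sham to 35.8 and 15.0 CPM in intra-S livers (log2 fold change 2.05, adjusted p = 0.0318). Endothelial markers were also higher there, with 92.2 and 102 CPM in sham, 307 and 272 in intra-C and 425 and 228 in intra-S livers over 8 genes, and their part in this rise was not tested.

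Angptl8, a feeding-induced factor, and Lpl, lipoprotein lipase itself, were highest in intra-S liver 1. Angptl8 was 7.86 and 13.6 CPM in sham, 2.11 and 1.67 in intra-C and 64.0 and 4.51 in intra-S livers. Lpl was 47.9 and 42.7 CPM in sham, 106 and 41.1 in intra-C and 474 and 91.2 in intra-S livers. Neither was called in either group (adjusted p = 0.198 and 0.317 for Angptl8, and 0.601 and 0.0842 for Lpl).

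PPAR alpha, the fasting receptor of the hepatocyte, is a known activator of both Fgf21 and Angptl4. The called genes of its list, which holds Ppara, its targets and related regulators, all fell, but most of the list was not called. Of the 20 tested genes, 0 were called higher and 3 lower in intra-C livers, and 0 higher and 4 lower in intra-S livers, with median log2 fold changes of -0.51 and -1.14. Over all tested genes 2.38% were called lower in intra-C and 3.95% in intra-S livers. Acaa1b, the peroxisomal thiolase, fell from 977 and 737 CPM in sham to 26.3 and 70.9 in intra-C and 4.93 and 19.2 in intra-S livers (log2 fold changes -4.14 and -6.15, adjusted p = 0.0328 and 0.0133). Ehhadh, the peroxisomal bifunctional enzyme, fell in both groups (log2 fold changes -1.91 and -3.14, adjusted p = 0.0295 and 0.00782), as did Acot1, an acyl-CoA thioesterase (-2.27 and -3.13, adjusted p = 0.0494 and 0.0206). Ppara itself was 243 and 226 CPM in sham, 149 and 242 in intra-C and 91.2 and 88.6 in intra-S livers, and fell in the latter (log2 fold change -1.38, SE 0.27, adjusted p = 0.0301). In intra-S livers the log2 fold change was -0.98 for Angptl4, which was not called, and 0.05 for Fgf21, whose sign changed with the scaling. A part of PPAR alpha in either level was not tested. Pdk4, another target, was 52.8 and 14.9 CPM in sham, 58.1 and 85.4 in intra-C and 116 and 19.2 in intra-S livers and was not called. Ppargc1a, also on the list, was 18.7 and 21.7 CPM in sham, 80.4 and 32.2 in intra-C and 46.3 and 27.3 in intra-S livers. It was not called either.

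**Figure D4:**
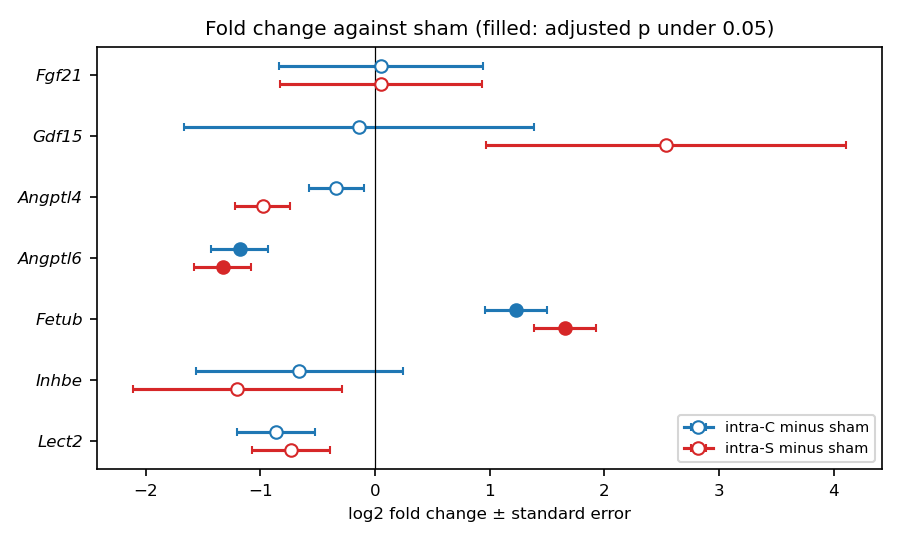
Log2 fold change against sham with its standard error for the 7 tested hepatokines in intra-C and intra-S livers (edgeR quasi-likelihood fit over 6 livers, filled points mark an adjusted p under 0.05). Fetub is above 0 and Angptl6 below 0 in both groups with standard errors of 0.25 to 0.27, whereas the bars of Gdf15 span 1.53 and 1.57 to each side.

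Fetub (chr16:22918382-22939768, plus strand) rose in both groups. It was 324 and 313 CPM in sham, 891 and 606 CPM in intra-C and 1136 and 878 CPM in intra-S livers, so the sham livers lay close together and well below the other 4. The rise was 2.35-fold in intra-C (log2 fold change 1.23, SE 0.27, adjusted p = 0.0464) and 3.16-fold in intra-S livers (log2 fold change 1.66, SE 0.27, adjusted p = 0.0191). The difference between intra-S and intra-C was 0.43 (SE 0.27, adjusted p = 0.503), and the livers of these groups overlapped. Both calls were lost without either sham liver, with adjusted p of 0.302 and 0.339 in intra-C and 0.173 and 0.183 in intra-S livers. The call in intra-C livers was also lost without intra-C replicate 1 (0.264) or replicate 2 (0.121), without TMM (0.0584) and with limma on log2(TPM + 1) (0.0544), and the call in intra-S livers when only those livers and sham were fitted (0.0507).

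Some genes of other plasma proteins with cystatin domains also rose. Of 6 tested genes, Fetub included, 3 were called higher and 0 lower in intra-C livers and 4 higher and 0 lower in intra-S livers, with median log2 fold changes of 1.11 and 1.24. Over all tested genes 4.92% were called higher in intra-C and 6.78% in intra-S livers. Kng1 and Kng2, the kininogens of the contact system, rose in both groups, Kng1 from 2193 and 2427 CPM in sham to 9779 and 7051 in intra-C and 7854 and 10262 in intra-S livers (log2 fold changes 1.87 and 1.97, adjusted p = 0.0190 and 0.0139). Kng1 and Kng2 are close copies, and unique counting may divide their reads unevenly. Ahsg, fetuin-A, the closest relative of fetuin-B and an inhibitor of calcification, rose in intra-S livers from 6480 and 7208 CPM in sham to 17974 and 17132 CPM (log2 fold change 1.36, SE 0.23, adjusted p = 0.0215), and at 14749 and 12329 CPM in intra-C livers it was not called (0.98, adjusted p = 0.0557). Hrg, the histidine-rich glycoprotein, was 725 and 674 CPM in sham, 1309 and 1021 in intra-C and 713 and 640 in intra-S livers and was not called in either group. Cst3, cystatin C, was not called either (log2 fold changes 0.42 and 0.69, adjusted p = 0.352 and 0.136). For comparison, 13 of 16 genes of the STAT3 and acute phase list were called higher in each group, with medians of 3.03 and 2.95, so the rise of Fetub and Ahsg was smaller than the middle of that list.

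Among the relatives of Inhbe, another activin subunit and follistatin had the largest log2 fold changes. Inhbb, the beta subunit of activin B, had 6 and 3 counts in sham livers, 243 and 358 in intra-C and 1722 and 715 in intra-S livers. It rose by 6.30 (SE 0.77, adjusted p = 0.0118) and 8.27 (SE 0.80, adjusted p = 0.00579) on the log2 scale, to 6.19 and 11.1 CPM in intra-C and 50.2 and 17.5 CPM in intra-S livers. Fst, follistatin, which binds activins, had 0 and 6 counts in sham, 630 and 35 in intra-C and 406 and 302 in intra-S livers, and was called in intra-S livers (log2 fold change 7.04, SE 1.60, adjusted p = 0.0423) and not in intra-C livers (6.87, SE 1.59, adjusted p = 0.0532). Tgfbr3, betaglycan, rose in both groups by 1.23 and 1.39 (adjusted p = 0.0267 and 0.0154). Inhbc, which encodes the activin C subunit and is a hepatocyte gene beside Inhbe, was 93.4 and 86.4 CPM in sham, 67.2 and 90.0 in intra-C and 24.4 and 82.7 in intra-S livers and was not called. In all, 2 of 16 tested genes of the activin list were called higher in intra-C and 3 in intra-S livers, 0 were called lower, and the medians were 0.18 and 0.25. Over all tested genes 4.92% and 6.78% were called higher.

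**Figure D5:**
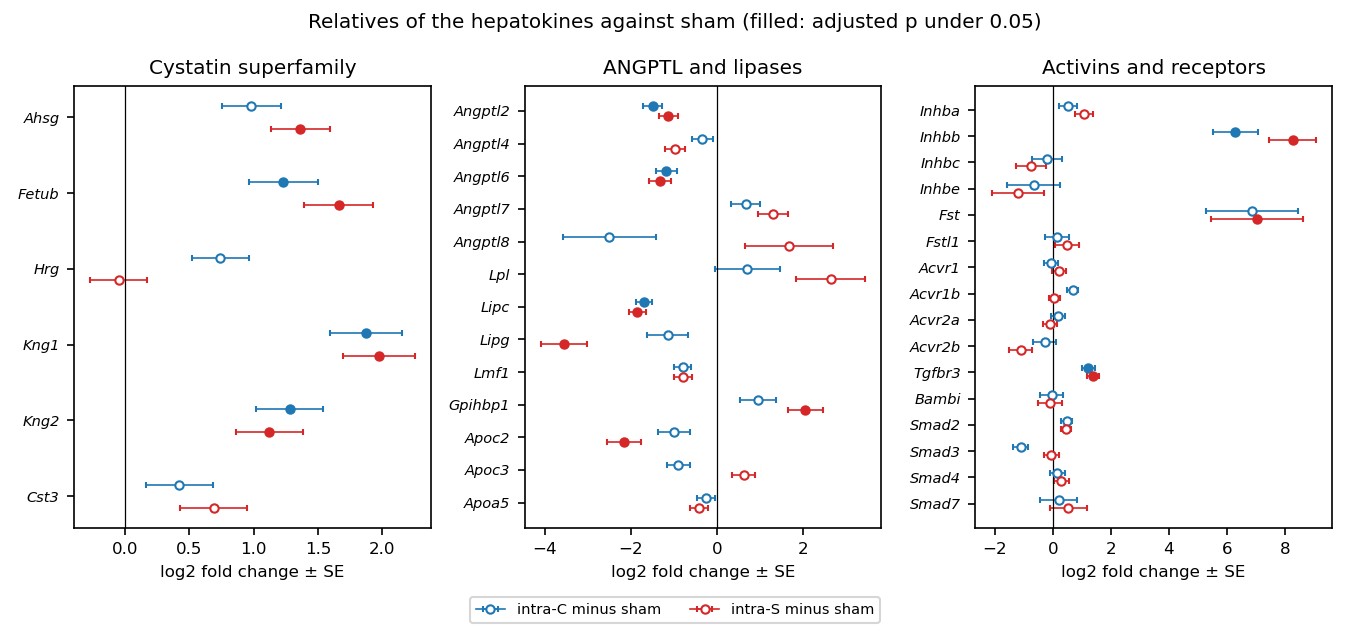
Log2 fold change against sham with its standard error for tested genes of the cystatin superfamily, of the angiopoietin-like and lipase list and of the activin list, in intra-C and intra-S livers (filled points mark an adjusted p under 0.05). Fetub lies beside Kng1, Kng2 and Ahsg to the right of 0, Angptl6 beside Angptl2 and Lipc to the left, and Inhbb is far to the right (6.30 and 8.27) while Inhbe is left of 0 (-0.66 and -1.20).

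Lect2 (chr13:56529734-56548559, minus strand) was lower in all 4 livers of tumor-bearing mice and was not called. It was 269 and 306 CPM in sham, 171 and 147 CPM in intra-C and 115 and 232 CPM in intra-S livers, with log2 fold changes of -0.86 (SE 0.34, unadjusted p = 0.0442, adjusted p = 0.173) and -0.73 (SE 0.34, adjusted p = 0.211). It passed the threshold in intra-C livers without intra-S replicate 1 (adjusted p = 0.00595), without intra-S replicate 2 (0.00694) and with only the 2 groups fitted (0.00694), and in intra-S livers without intra-S replicate 2, where the value was -1.32 (adjusted p = 0.00254). Without intra-S replicate 1 the value in intra-S livers was -0.30 (adjusted p = 0.284). It overlaps Fbxl21 on the opposite strand by 8165 bases, but that gene had at most 52 counts in any liver. Its receptor Met was not called in either group (log2 fold changes 0.53 and -0.38). Tie1 and its partner Tek, both endothelial, rose in intra-C livers by 1.37 and 1.26 (adjusted p = 0.0490 and 0.0286) and were 1.19 and 0.87 in intra-S livers (adjusted p = 0.0568 and 0.0543), next to the endothelial marker sums given above. Lect2 is a beta-catenin target in liver, and of 13 tested genes of the list that joins its receptors with WNT-dependent genes 2 were called higher and 1 lower in intra-C livers and 0 higher and 1 lower in intra-S livers. The lower ones were Rnf43, an inhibitor of WNT receptors, in intra-C livers (log2 fold change -1.43, adjusted p = 0.0403) and Cyp2e1, a pericentral cytochrome, in intra-S livers (-1.67, adjusted p = 0.0133). The shares over all tested genes were 4.92% higher and 2.38% lower in intra-C livers, and 6.78% and 3.95% in intra-S livers.

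Counted together, 2 of the 7 tested hepatokines were called in each comparison with sham, the same 2 genes, Fetub upward and Angptl6 downward, beside 7.30% of all tested genes called in intra-C and 10.7% in intra-S livers. Both comparisons share the sham livers. In intra-C livers 1 hepatokine lay wholly above and 2 wholly below the sham livers, and in intra-S livers 1 lay above and 4 below. Of the 7, 3 had an unadjusted p under 0.05 in intra-C and 3 in intra-S livers, beside 27.0% and 30.2% of all tested genes. Separation of the livers is common with 2 livers per group, since 34.4% of all tested genes lay wholly above and 34.0% wholly below sham in intra-C livers, and 30.4% and 30.0% in intra-S livers. Between intra-S and intra-C livers 0 of the 7 were called by edgeR's quasi-likelihood test, 1 had an unadjusted p under 0.05 (Angptl4) and 0 were called by DESeq2. Of all tested genes 0.00% were called by edgeR and 3.47% by DESeq2, and 13.4% had an unadjusted p under 0.05 with edgeR.

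The counts of called list genes rest on few livers. Without either sham liver 0 genes of any list were called. Without intra-S replicate 1, the liver with the highest Fgf23 and Gdf15, the calls in intra-S livers were 7 higher and 1 lower in the integrated stress response list, 1 higher and 7 lower among PPAR alpha targets, 2 higher and 7 lower in the angiopoietin-like and lipase list, 5 higher and 0 lower in the cystatin superfamily and 4 higher and 0 lower in the activin list. The share of all tested genes called in that fit was 16.5%, against 10.7% with all livers. Without intra-S replicate 2, where 32.7% of all genes were called, they were 16 and 0, 0 and 9, 5 and 7, 4 and 0, and 5 and 2 in the same order. Without intra-C replicate 1 (3.08% of all genes called) they were 1 and 0, 0 and 5, 0 and 2, 2 and 0, and 3 and 0, and without intra-C replicate 2 (2.79%) they were the same but for 0 and 4 among PPAR alpha targets. In intra-C livers 0 genes of these 5 lists were called without intra-C replicate 1 or without intra-C replicate 2, where 0.369% and 0.346% of all genes were.

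The levels of different genes were compared by the authors' TPM values, which take gene length into account. In sham livers Lect2 was the most abundant, with 540 ± 47.6 TPM, followed by Fetub with 401 ± 11.3, Angptl4 with 62.0 ± 9.21, Inhbe with 22.6 ± 3.27, Angptl6 with 8.97 ± 1.11, Gdf15 with 3.87 ± 0.239 and Fgf21 with 2.64 ± 0.669 TPM (SD, n = 2). No neighbors in this order overlapped. In intra-C livers Fetub came first with 823 ± 184 TPM and Lect2 second with 261 ± 16.2 TPM, and in intra-S livers they had 1029 ± 137 and 269 ± 140 TPM, so the 2 most abundant hepatokines changed places in both groups without overlap between them. Below them in intra-S livers came Fgf23 with 31.1 ± 40.1, Angptl4 with 25.6 ± 1.53 and Gdf15 with 17.8 ± 24.6 TPM, whose values overlapped. Fgf21 had the lowest mean of these genes in intra-S livers, with 2.23 ± 0.236 TPM, but in intra-S liver 2 Gdf15 was lower (0.398 TPM, against 2.06 TPM for Fgf21).

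Among 26 other hormones and carriers made by the liver, 5 were called higher and 1 lower in intra-C livers and 6 higher and 2 lower in intra-S livers. The shares over all tested genes were 4.92% higher and 2.38% lower in intra-C livers, and 6.78% and 3.95% in intra-S livers. Among the called genes of this list the largest changes were those of Lcn2, a siderophore-binding acute phase protein (log2 fold changes 8.13 and 8.35), Igfbp1, a binding protein of insulin-like growth factor (5.83 and 5.92), Lrg1 (3.82 and 3.35) and Serpinb1a, a protease inhibitor (2.83 and 3.31), each called in both groups (adjusted p from 0.00446 to 0.0393). These 4 were higher in all livers of tumor-bearing mice than in sham livers. Igfbp1 ranged from 20.6 and 71.8 CPM in sham to 4473 and 770 in intra-C and 4209 and 1388 in intra-S livers. Against this, Fetub was the hepatokine with the largest called rise, of 1.23 and 1.66 on the same scale.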

How the data were processed

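The authors aligned polyadenylated RNA reads of 6 livers to mm10 with HISAT2 2.1.0 and counted unique exon reads with featureCounts of Subread 2.0.6. Per the labels and the study's methods, they deposited raw counts per gene, and the authors also deposited TPM values. The annotation and the strand setting are not given in the sources used here. The series names the samples biological replicates.

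Counts were tested with edgeR 4.0.16 (R 4.3.3), using TMM, filterByExpr (minimum 10), the quasi-likelihood test in 1 fit over 6 livers with 3 residual degrees of freedom, and Benjamini-Hochberg adjustment over 16370 of 20140 genes (called under 0.05). The same code was tested on simulated data. The hepatokines and all gene lists were chosen with earlier results of these data known. The text names all hepatokines, up to 4 called genes per list with the largest change and a mean of at least 1 CPM, any gene of the FGF receptor, GDF15, activin, angiopoietin-like and cystatin lists, and the 3 genes closest by Pearson correlation of log2 CPM. Further genes (Epo, Met, Atf3, Atf4, Pdk4, Ppargc1a, Alb, Vldlr, Shmt2, Tigar, Shfl, Fbxl21 and Dmp1) were named after their values were seen. Alternatives were DESeq2 1.42.0, other scaling, filters and fits, limma 3.58.1 on log2(TPM + 1) and log2(TPM + 0.1), a replicate block and each liver left out. No permutation of 2 against 2 livers can reach 0.05. 1 gene of the angiopoietin-like and lipase list is counted there but not reported here.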

Additional observations from a re-analysis of the deposited data

How the results depend on the processing

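In intra-C against sham 2 hepatokines were called. The number was 1 without TMM (Angptl6), 1 with the replicate block (Fetub), and 1 with limma on log2(TPM + 1) or log2(TPM + 0.1) (Angptl6), while 8.37%, 5.69%, 8.51% and 9.03% of all genes were called. With DESeq2 it was 2, beside 17.2% of all genes. Leaving out each liver in turn gave 0 to 3, with 0 without any 1 sham or intra-C liver (0.00% of all genes called without either sham liver, 0.369% and 0.346% without an intra-C liver) and 3 without either intra-S liver (26.5% and 26.3%), against 7.30% with all livers. In intra-S against sham 2 were called. The number was 0 when only these groups were fitted, where 2.48% of all genes were called, and 0 to 5 when a liver was left out, with 0 without either sham liver (0.00% of all genes), 1 without either intra-C liver (3.08% and 2.79%) and 5 without intra-S replicate 2 (32.7%), against 10.7% with all livers. Between intra-S and intra-C 0 were called, and 0 to 1 when a liver was left out (Gdf15 without intra-S replicate 2, where 16.5% of all genes were called). A fit without a liver of a compared group assumes that the lone liver varies like the others. The other settings left the counts within 1.5 times. The cause of these changes was not tested.

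Fetub and Angptl6 kept their direction in all 16 alternatives of each comparison with sham. The sign of Fgf21 in intra-C turned to -0.17 without TMM, -0.23 with the replicate block, -0.33 and -0.69 with limma on TPM, and ranged from -2.09 to 0.90 as livers were left out. In intra-S it turned to -0.23 without TMM and to -0.16 and -0.22 with limma on TPM, with -0.18 to 0.34 as livers were left out. Gdf15 in intra-C turned to 0.09 with the replicate block and ranged from -1.31 to 0.52, in intra-S from -3.02 to 3.53, and between intra-S and intra-C from -2.89 to 3.87. With limma on TPM it fell from 2.54 to 0.55 and 0.08 in intra-S, and from 2.68 to 0.93 and 0.64 between intra-S and intra-C. Inhbe in intra-C moved from -0.66 to -1.17 with the replicate block and to -1.44 and -1.67 with limma on TPM and ranged from -3.25 to 0.23, and between intra-S and intra-C it turned to 0.06 and 0.19 with limma on TPM and ranged from -1.43 to 2.06. Lect2 between these groups turned to -0.06 in both limma fits and ranged from -0.47 to 0.55. Between the same groups Fgf21 ranged from -0.84 to 2.16 around 0.00, Fetub from 0.17 to 0.73 around 0.43, and Inhbe was -0.03 with the replicate block. Angptl4 in intra-C ranged from -0.60 to -0.15 around -0.34. Without TMM the median of all genes moved to -0.25 and -0.23 from 0.01 and 0.04.

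Deviations of same-numbered livers correlated with r = -0.03, 0.08 and 0.04 across genes, so no shared deviation was seen. With 2 livers per group these values cannot exclude that the livers were paired. The replicate block left 1 hepatokine called in intra-C and 2 in intra-S livers against sham, beside 5.69% and 9.21% of all genes. Between intra-S and intra-C it left 0, beside 0.00% of all genes.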
